A study of Mus musculus with 4 samples.

Results

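The cells described here are the GABAergic lineage cells of the E14.5 mouse telencephalic midline. A barcode was counted as a member when it had at least 1000 detected genes, at most 10% mitochondrial UMIs (unique molecular identifiers, 1 for each captured transcript) and a UMI of at least 3 of the genes Dlx1, Dlx2, Dlx5, Gad2, Lhx6 and Sp9. The rule also names Dlx6os1, a long non-coding RNA, which was not analysed here, so the rule was applied to 6 of its 7 genes. It found 55 members among the 12641 kept E14.5 barcodes, which is 0.435% (exact Clopper-Pearson 95% interval 0.328 to 0.566%), and the whole series holds 27196 kept barcodes. The members' levels of the 6 genes are what chose them and are given as a description. Because the members were picked on expression in the same cells, every contrast between members and other cells is a description too.

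GABAergic neurons of the cortex and hippocampus are born outside the pallium, in the ganglionic eminences of the ventral telencephalon, and reach it by tangential migration. Dlx homeodomain factors and Sp9 act in the progenitors and young neurons of all eminences. Lhx6 marks the cells that leave the medial eminence, which later become somatostatin and parvalbumin interneurons. Gad1 and Gad2 make GABA, and Slc32a1 loads it into synaptic vesicles.

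The gof embryos carried Lmx1aCre::Ai9::b-cat gof, and the control embryos carried Lmx1aCre::Ai9. Both genotypes therefore had Cre under Lmx1a, a roof plate and cortical hem gene, and the Ai9 allele, which makes tdTomato after recombination. The gof embryos had in addition the beta-catenin gain-of-function allele. The dissected piece lay around the cortical hem and took in Cajal-Retzius cells and some of the hippocampal primordium, from both hemispheres of 3 male embryos pooled into 1 library per genotype. With 1 library per genotype no difference has a replicate check, and no p-value is given. The intervals below are exact 95% intervals for counting error only.

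The gof library held 93988703 UMIs in 6263 barcodes, and the control library held 113821989 UMIs in 7844 barcodes. Of these, 5572 gof and 7069 control barcodes were kept, with medians of 14354.5 UMIs in gof and 13166 UMIs in control. The members were shallower, with a median of 8656 UMIs (range 4648 to 134418) in the gof library and of 7208 UMIs (range 3269 to 27633) in the control library. Their median share of mitochondrial UMIs was 2.42% in gof and 3.18% in control. The E14.5 libraries shared 9 barcode sequences, none of them a member's.

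A few members stood apart from the rest and weigh on every summed value. The deepest gof member had 134418 UMIs, which is 31.7% of all UMIs of the gof members, and it carried all 6 genes of the endothelial marker list. In all, 12 members had over 15000 UMIs, 4 in gof and 8 in control, and they supplied 58.4% of the member UMIs in gof and 57.4% in control. Of these 12, 5 had at least 2 of the pallial genes Neurod2, Neurod6, Tbr1 and Eomes, 5 had at least 3 of 6 cell cycle genes, and 3 were among the barcodes with the highest Scrublet (doublet) scores. In total 8 of the 12 deep members had at least one of these marks or the endothelial genes, against 2 of the 43 members of at most 15000 UMIs. Values are therefore given for all members and, where they differ, for these 43. Whether the deep barcodes hold more than 1 cell was not tested.

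Members have several rule genes by selection, so how often these genes occur together in members is a description only. Gad2, which makes GABA, was detected in every member, 26 of 26 in gof and 29 of 29 in control, although the rule did not require any single gene. Sp9 was found in 21 gof and 26 control members, Dlx2 in 22 and 23, Dlx1 in 20 and 23, Lhx6 in 22 and 23, and Dlx5 in 19 gof and 18 control members. All 6 genes were present in 21 of the 55 members, and the next most common set, in 6 members, was Dlx1, Gad2, Lhx6 and Sp9. Summed over members, Gad2 reached 333 CPM (UMIs scaled to a common library total; 280 to 392) in gof and 404 CPM (337 to 481) in control, the highest level of the 6 genes in both libraries. Lhx6 reached 116 CPM (85.5 to 153) in gof and 151 CPM (111 to 200) in control.

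Outside the members, the rule genes were rare in cells that should lack them. Kept barcodes with endothelial or mesenchymal genes numbered 145 in gof and 118 in control outside the members, with median depths of 18237 UMIs in gof and 12522.5 UMIs in control. Each rule gene was found in 0 or 1 of these barcodes in gof and in 0 to 2 in control. A count of 0 allows a share of up to 2.07% in gof and 2.54% in control. Leaving out the members takes away barcodes with 3 or more rule genes by definition. With members included, 1 of 146 such barcodes met the rule in gof and 0 of 118 in control.

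**Figure D1:**
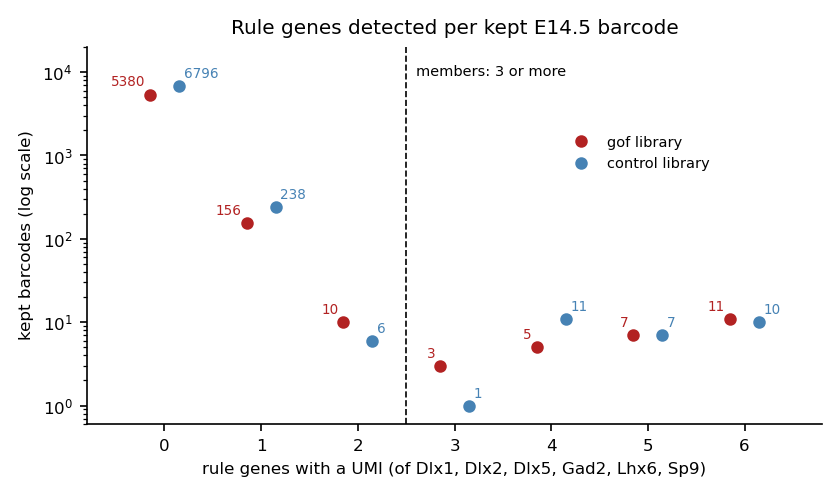
Number of kept E14.5 barcodes (vertical axis, log scale) by the number of rule genes with a UMI (horizontal axis), for the gof library (red) and the control library (blue); the dashed line is the rule. Barcodes thin out to 3 in gof and 1 in control at exactly 3 genes and increase again to 11 in gof and 10 in control at all 6 genes.

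The number of rule genes per barcode had 2 separate humps, as the plot of barcodes by rule genes shows. Exactly 3 genes were found in 4 barcodes, just inside the rule, and exactly 2 genes in 16 barcodes, just outside it (10 gof and 6 control). All 4 barcodes with 3 genes had UMIs of Gad1, Nxph1 and Erbb4, genes the rule did not use. Of the 16 barcodes with 2 genes, 13 had Erbb4, 9 had Nxph1 and 7 had Gad1, and 5 had at least one of the pallial genes Neurod2, Neurod6, Tbr1 and Eomes. Any barcode that Dlx6os1 would have added has 2 of the other genes and is thus among these 16.

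Of the lineage genes that the rule did not use, some were present in every member and others in part of them. Nxph1, a secreted ligand of neurexins, and Erbb4, the neuregulin receptor of migrating interneurons, were detected in 55 of 55 members. Gad1, the other GABA-synthesizing enzyme, was found in 21 gof and 25 control members, and Slc32a1 in 18 gof and 11 control members. Dlx6 was sparse, with 5 gof and 9 control members. Among pallial neurons of the same libraries, defined here as kept barcodes outside the members with a UMI of each of Neurod2, Neurod6 and Tubb3 (2162 in gof with a median of 14122.5 UMIs, 2128 in control with a median of 14391.5 UMIs), Nxph1 was found in 3.15% in gof and 4.65% in control, although these barcodes are deeper than the members. GABAergic markers outside the rule were thus present in members of both libraries, as the label states.

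**Figure D2:**
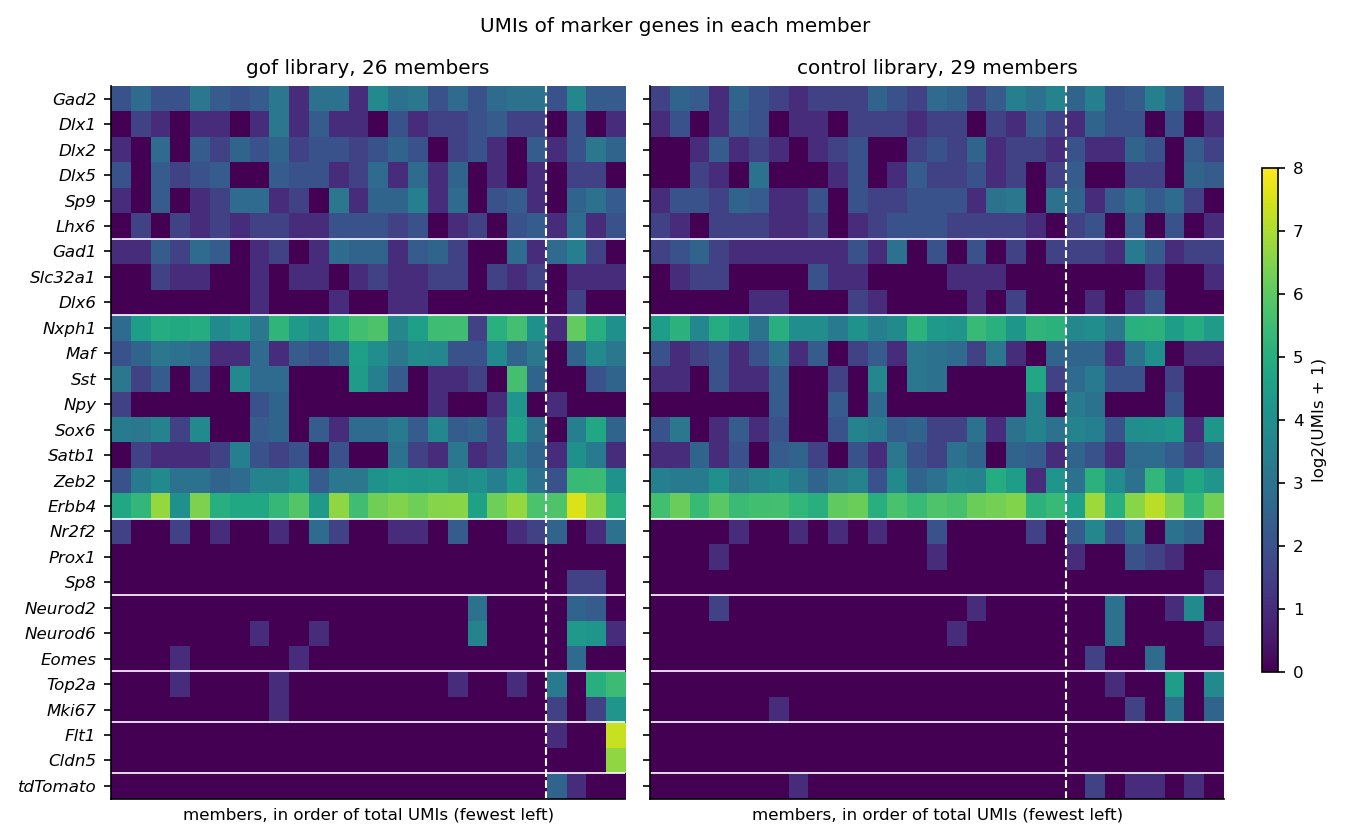
UMIs of 28 genes (rows, log2 of UMIs + 1 as colour) in each member (columns, in order of total UMIs), with the gof library left and the control library right; the dashed white line marks 15000 UMIs, and horizontal lines separate rule genes, other GABAergic genes, medial eminence genes with Erbb4, caudal genes, pallial genes, cell cycle genes, endothelial genes and tdTomato. Gad2, Nxph1 and Erbb4 are seen in every column, while pallial, cell cycle and endothelial genes lie mostly right of the dashed lines.

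In the heatmap of the members, Nxph1 and Erbb4 had the most UMIs of the lineage genes in most columns, at levels that varied widely between barcodes. Nxph1 ranged over the gof members from 49.2 to 6097 CPM per barcode, with a median of 2667 CPM, and over the control members from 390 to 7119 CPM, with a median of 2457 CPM. Erbb4 had a median of 6162 CPM per barcode in gof (231 to 18840) and of 7108 CPM in control (1422 to 14870). The lowest value of each gene in each library came from a member of over 15000 UMIs, and the ranges of the libraries overlap.

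The members carried a medial eminence profile. Of the 13 genes of the medial ganglionic eminence list, 11 had a UMI in the members of each library, and the other 2, Nkx2-1 and Lhx8, were at 0 in all 55 members. Nkx2-1 specifies medial eminence progenitors and Lhx8 marks their striatal cholinergic branch, and interneurons bound for the cortex do not keep either on. Lhx6 was detected in 45 of 55 members (81.8%, 69.1 to 90.9%), 22 of 26 in gof and 23 of 29 in control. Its low count made this share depend on depth, since with every barcode thinned to 3000 UMIs it was 23 of 55 (41.8%, 28.7 to 55.9%). The transcription factor Maf, which acts after Lhx6 in these interneurons, was found in 51 of the 55 members, and 42 of the 45 members with Lhx6 had it, as did 9 of the 10 without.

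Somatostatin marks one class of Lhx6 descendants. Sst, which encodes the neuropeptide somatostatin, was found in 17 of 26 gof members and 17 of 29 control members, and 28 of these 34 also had Lhx6, as did 17 of the 21 members without Sst. Its summed level was 335 CPM (282 to 395) in gof and 292 CPM (235 to 358) in control, against 0.159 CPM in gof pallial neurons and 0.0526 CPM in control pallial neurons. Per member it ran from 0 to 4357 CPM with a median of 145 CPM in gof, and from 0 to 3220 CPM with a median of 146 CPM in control, so the groups overlap throughout. Npy, a neuropeptide of many Sst interneurons, was found in 7 gof and 7 control members, and 12 of these 14 had Sst. Npy was also expressed by control pallial neurons (33.0 CPM, in 6.67% of them), against 0.212 CPM in gof pallial neurons.

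The Sst promoter is shown because it holds the classic cAMP response element through which this neuropeptide gene was studied. The sequence is from RefSeq (GRCm38.p6), from 250 bases before to 50 bases after the annotated start, chr16:23890795-23891094 on the minus strand, with the element TGACGTCA in capitals.

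Sst promoter: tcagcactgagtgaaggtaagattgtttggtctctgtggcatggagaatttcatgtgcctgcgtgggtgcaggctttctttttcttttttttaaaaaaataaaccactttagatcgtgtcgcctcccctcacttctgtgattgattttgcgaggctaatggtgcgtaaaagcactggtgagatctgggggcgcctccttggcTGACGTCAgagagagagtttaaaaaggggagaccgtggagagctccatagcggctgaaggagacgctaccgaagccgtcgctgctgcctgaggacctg

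The element begins at position -48 relative to the annotated start, and it reads the same on both strands. It is present in 588 of the 32851 promoters of this length, or 1.79%. Promoters were found for 10 of the 13 genes sought (Dlx1, Dlx2, Gad2, Lhx6 with 3 starts, Sp9, Gad1, Nxph1, Sst, Erbb4 and Slc32a1), 12 promoters in all, and Sst was the only one with the element. The letters TAATTA, a core bound by many homeodomain proteins, were in none of these 12 windows and in 5.29% of all promoters. A match or its absence describes these letters in this window only.

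Genes of the caudal eminence were found in part of the members. Nr2f2, a nuclear receptor enriched in the caudal eminence and in parts of the medial one, was found in 14 gof and 12 control members, and 22 of these 26 members also had Lhx6. Prox1, which marks caudal eminence interneurons, was found in 0 of 26 gof members and in 6 of 29 control members, at 0 against 28.9 CPM (13.2 to 54.8). Most of these 6 control members had over 15000 UMIs, a class of 4 gof and 8 control members. The rest of the 6 had 1 Prox1 UMI each. Prox1 is also a gene of the hippocampal primordium, and the pallial neurons had 31.4 CPM in gof and 76.4 CPM in control. At least 2 of the caudal genes Nr2f2, Prox1, Sp8 and Htr3a were found together in 3 gof and 4 control members, 12.7% of all (5.27 to 24.5%). The other kept barcodes, which are deeper, had them together more often, in 23.4% in gof and 39.7% in control. After thinning to 3000 UMIs this was 1 of 55 members (1.82%, 0.046 to 9.72%), so it was rarely detectable at a matched depth. The other barcodes then had 3.23% in gof and 7.33% in control, both within that interval. Calb2 and Vip, markers of later caudal interneurons, had no UMI in any member.

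Of the 13 genes of the lateral eminence and striatal list, 6 had a UMI in gof members and 7 in control members, and the list summed to 585 CPM in gof members and 439 CPM in control members, against 1089 CPM in gof pallial neurons and 782 CPM in control pallial neurons. Meis2, a homeodomain factor also expressed in the pallium, was found in 6 gof members at 191 CPM and in 9 control members at 231 CPM. Foxp1 had 156 CPM in gof members and 60.9 CPM in control members, and Foxp2 had 61.3 CPM in gof members and 115 CPM in control members. These 3 genes were not called against pallial neurons, and in members of at most 15000 UMIs all 3 were called lower. Isl1 and Six3, factors of lateral eminence and striatal neurons, were at 0 in all 55 members, as were Ikzf1, Penk and Drd2. With 3 counts taken as the limit of a count of 0, each could have been at up to 7.08 CPM in gof and 9.62 CPM in control. Vax1, Gsx1 and Gsx2, factors of eminence progenitors and the ventral forebrain, were at 0 as well. Of the 10 genes of the non-telencephalic GABAergic list (Gata2, Gata3, Tal1 and others), 4 had a UMI in gof and 1 in control, with summed levels of 49.5 CPM in gof and 51.3 CPM in control.

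Few members had the Cre reporter. A tdTomato UMI was found in 2 of 26 gof and 5 of 29 control members, and only 1 member of each library, both of over 15000 UMIs, had at least 2 UMIs, against 20.9% of all other kept barcodes in gof and 17.9% in control. Thinned to 3000 UMIs, no member had 2 tdTomato UMIs, against 5.38% of the other barcodes in gof and 3.76% in control, and 0 of 55 members allows a share of up to 6.49% by the exact interval. At that matched depth the difference from the other barcodes was within counting error. Reads of tdTomato count its transcript and not the recombination of the beta-catenin allele in the same cell, which was not measured.

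Beside pallial neurons, Nxph1, Sst, Nrxn3 and Erbb4 had the highest ratios in members outside the rule genes. A gene was called when it differed at least 2-fold in each library with separate 95% intervals in both, on log2(CPM + 1) values, and only genes reaching 50 CPM in one of the classes were measured. Of 4537 genes measured, 181 were higher in members (3.99% of all) and 177 were lower (3.9%), while all measured genes had a median of -0.03 on the log2 scale. Pallial neurons were defined by Neurod2 and Neurod6 and members by the rule genes, so these genes differ by construction.

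**Figure D3:**
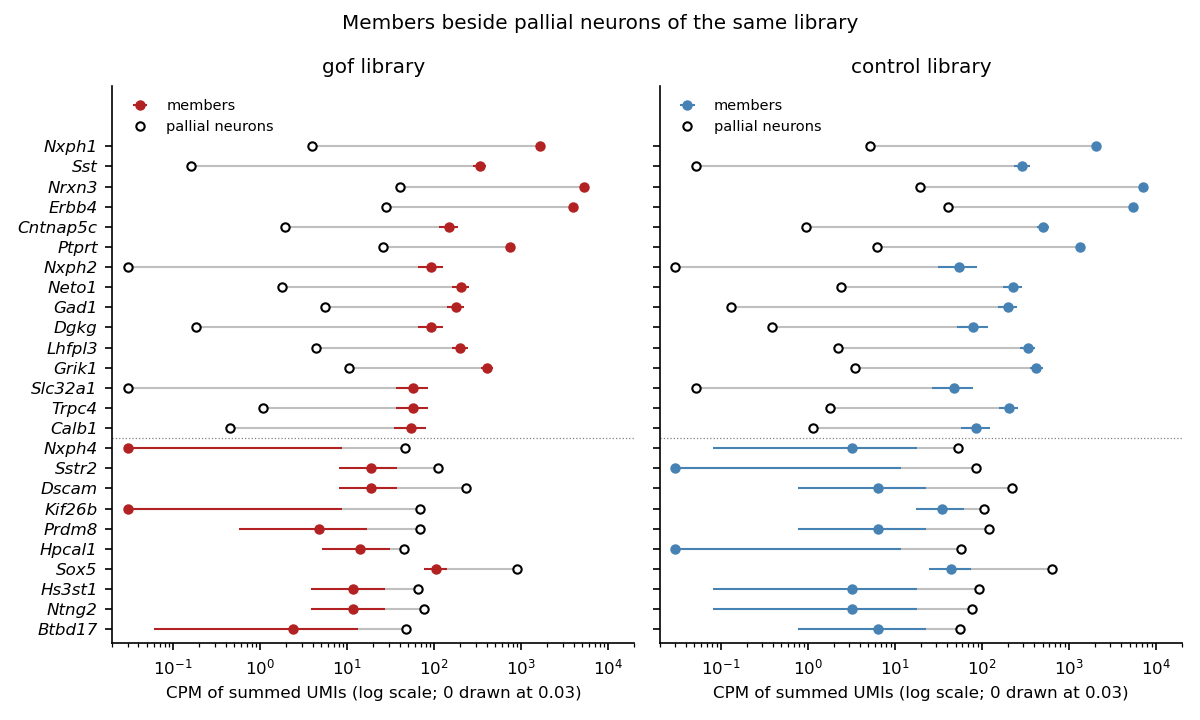
Summed CPM (horizontal axis, log scale, values of 0 drawn at 0.03) of the 15 called genes with the highest and the 10 with the lowest ratio, in members (filled, with the exact 95% interval) and pallial neurons (open), for the gof library left and the control library right. Above the dotted line members lie far right of pallial neurons in both libraries, and below it the order is turned round.

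The rule genes were left out of the 15 genes of highest ratio. Nxph1 had 1630 CPM in gof members and 3.98 CPM in gof pallial neurons, and 2049 CPM in control members and 5.16 CPM in control pallial neurons, log2 ratios of 8.36 in gof and 8.38 in control. Nrxn3, a presynaptic neurexin and so of the family that binds Nxph1, had 5236 CPM in gof members against 40.6 CPM in gof pallial neurons, and 7209 CPM in control members against 19.6 CPM in control pallial neurons. Erbb4 had 3934 CPM in gof members against 27.8 CPM in gof pallial neurons, and 5493 CPM in control members against 41.1 CPM in control pallial neurons. These 3 genes differed by over 100-fold in both libraries. Sst, the receptor phosphatase gene Ptprt, the contactin-associated gene Cntnap5c, Nxph2, the kainate receptor subunit Grik1 with its auxiliary subunit Neto1, Gad1, Slc32a1, the cation channel gene Trpc4, the calcium-binding protein gene Calb1, Dgkg and Lhfpl3 made up the other 12 of the 15 highest. Calb1, which many interneurons make, was found in 10 gof and 10 control members.

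Among the 10 called genes of lowest ratio, Sox5, a factor of deep-layer projection neurons, had 104 CPM in gof members against 884 CPM in gof pallial neurons, and 44.9 CPM in control members against 647 CPM in control pallial neurons. Dscam, an adhesion molecule gene, had 18.9 CPM in gof members and 232 CPM in gof pallial neurons, and 6.41 CPM in control members and 224 CPM in control pallial neurons. The others of the 10 lowest were Nxph4, another neurexophilin, the somatostatin receptor gene Sstr2, Kif26b, Prdm8, Hpcal1, Hs3st1, Ntng2 and Btbd17. Nxph4 had no UMI in gof members and 1 UMI in control members, so the Nxph1 and Nxph2 genes were on the members' side and Nxph4 on that of the pallial neurons.

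**Figure D4:**
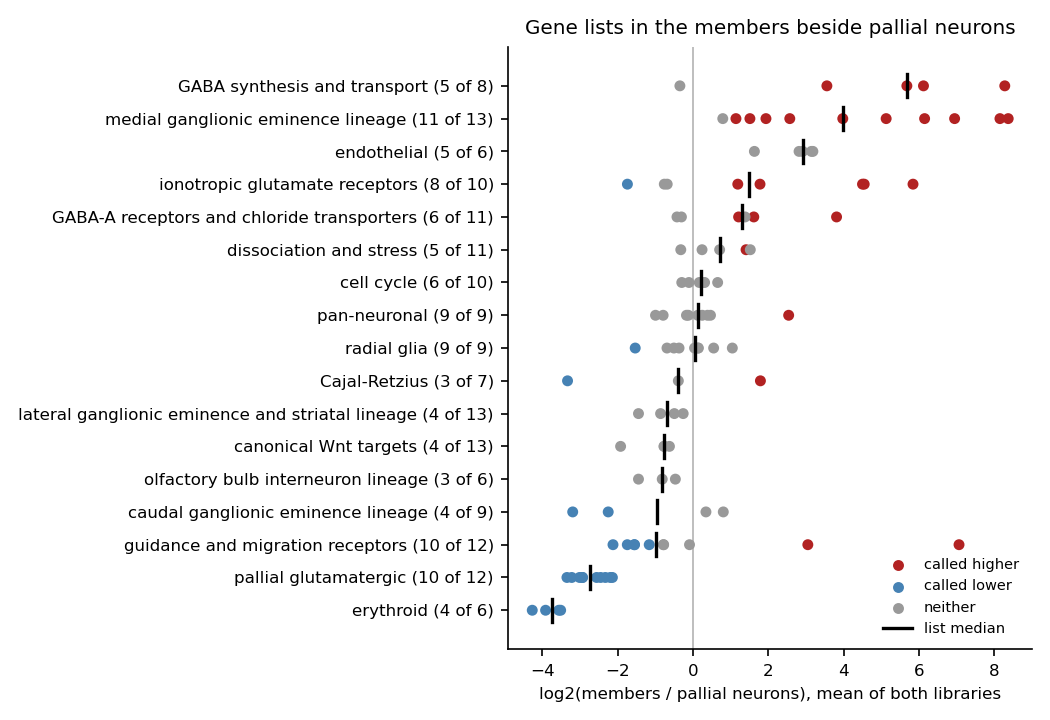
Mean log2 ratio of members over pallial neurons across both libraries (horizontal axis) for each measured gene (points) of the lists with at least 3 measured genes (rows, with the number measured and the list size), coloured by the call; black ticks are list medians. GABA synthesis and medial eminence genes have medians of 5.68 and 3.98, and pallial genes a median of -2.75.

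The plot of gene lists groups these differences. Of the 8 genes of GABA synthesis and transport 5 were measured, and 4 were called higher, among them Gad1, the rule gene Gad2 and Slc32a1, with a list median of 5.68. The glutamine transporter Slc38a1 was measured and not called, with 170 CPM in gof members and 208 CPM in gof pallial neurons, and 147 CPM in control members and 196 CPM in control pallial neurons. Of 11 measured medial eminence genes, the rule gene Lhx6 included, 10 were called higher, Zeb2 being the exception at log2 ratios of 0.74 in gof and 0.83 in control. Among them Maf had 417 CPM in gof members against 15.1 CPM in gof pallial neurons, and 334 CPM in control members against 6.13 CPM in control pallial neurons. None of the 4 measured caudal genes was called higher, and Prox1 and the cannabinoid receptor gene Cnr1 were called lower. Among members of at most 15000 UMIs 5 caudal genes were measured, the list median was 0.54, against -0.96 over all members, and Npas1, a transcription factor of caudal interneurons, was called higher, while Prox1 and Cnr1 were again called lower.

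Receptors for migration cues were split. Of 10 measured guidance and migration receptors 2 were called higher, Erbb4 and Ackr3, the scavenger receptor for the chemokine Cxcl12. Ackr3 was found in 23 gof and 24 control members, at 134 CPM in gof members against 17.1 CPM in gof pallial neurons, and at 176 CPM in control members against 18.5 CPM in control pallial neurons. Its partner Cxcr4, the signalling receptor for Cxcl12, was found in 5 gof and 8 control members with sums of 11.8 CPM (gof) and 38.5 CPM (control). The Slit receptors Robo1 and Robo2, the netrin receptor Dcc, Epha4 and Plxna4 were called lower, Dcc with 748 CPM in gof members against 2725 CPM in gof pallial neurons and 1119 CPM in control members against 3464 CPM in control pallial neurons.

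Transmitter receptor genes were higher in members in part. The AMPA receptor subunits Gria1 and Gria4 were found in all 55 members. Gria1 had 981 CPM in gof members and 33.5 CPM in gof pallial neurons, and 1498 CPM in control members and 77.4 CPM in control pallial neurons. Of 8 measured glutamate receptor genes, Gria1, Gria4, Grin2b, Grik1 and Grik3 were called higher and Gria3 lower, while Gria2, at log2 ratios of -0.54 in gof and -0.83 in control, was not called. Of 6 measured GABA-A receptor and chloride transporter genes 3 were called higher, Gabrb2 and Gabrg3 among them. Of 9 general neuronal genes 1, the synaptotagmin gene Syt1, was called higher, and the list median was 0.13, against -0.03 for all genes.

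Markers of other cell types were low for some types and not for others. The endothelial list summed to 1252 CPM in gof members and 9.62 CPM in control members, against 16.1 CPM in gof pallial neurons and 9.57 CPM in control pallial neurons, and in gof the deepest barcode alone had at least 3 of its genes. The radial glia list summed to 2066 CPM in gof members and 1462 CPM in control members, against 1876 CPM in gof pallial neurons and 1686 CPM in control pallial neurons. All 10 measured pallial glutamatergic genes were called lower, and their list summed to 380 CPM in gof members and 471 CPM in control members, against 2667 CPM in gof pallial neurons and 2731 CPM in control pallial neurons. The oligodendrocyte precursor genes Olig1, Olig2, Pdgfra and Sox10 were at 0 in both libraries. The choroid plexus genes summed to 28.3 CPM in gof and 73.8 CPM in control, with Kl, Folr1 and Aqp1 at 0, and the microglial genes to 23.6 CPM in gof and 16.0 CPM in control, with C1qa and C1qb at 0. The mesenchymal and mural genes summed to 7.08 CPM in gof and 9.62 CPM in control. The haemoglobin genes, often spread by red cell RNA, summed to 116 CPM in gof members and 93.0 CPM in control members, against 1370 CPM in gof pallial neurons and 1313 CPM in control pallial neurons. Their part in the member profile was not tested.

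The contrast was wider in the 43 members of at most 15000 UMIs. The cut was applied to the members only, and pallial neurons of all depths were kept. How far this cut on 1 side sets the values below was not tested. In them 350 genes were called higher than in pallial neurons (7.44% of the 4704 measured) and 300 lower (6.38%). Of the 181 and 177 genes called in all members, 173 and 147 were called the same way here, and none was called the other way. Nxph1 reached 3269 CPM in gof and 3519 CPM in control, and the pallial list had a median of -4.80, against -2.75 over all members. The cell cycle list had a median of -2.81 with Top2a and Cenpf called lower, and the radial glia list a median of -2.28, whereas over all members these medians were 0.22 and 0.04. The barcodes defined here as pallial neurons were not free of such RNA. Top2a was found in 28.1% of them in gof and 20.5% in control, and the radial glia gene Fabp7 in 86.7% and 67.7%. These medians are thus not a comparison with postmitotic neurons alone. Cycling members, with at least 3 of 6 cell cycle genes, numbered 4 in gof and 2 in control, and all but 1 of these 6 were deep barcodes.

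Members with and without an Lhx6 UMI differed in few genes. Of 4778 measured genes 10 were higher in members with Lhx6 (0.209% of all) and 3 were lower (0.0628%). The higher ones were led by the S phase and mitosis genes Pclaf, Cdk1 and Top2a, the linker histone gene H1f5, the radial glia gene Fabp7, Hmgb2, Selenoh and Unc5d, a netrin receptor, and the lower ones were L1cam, Usp29 and Lrrtm4. All 4 deep gof members had Lhx6 and 3 of them were cycling, and 5 of the 8 deep control members had Lhx6; the part of depth in this contrast was not tested. Among members of at most 15000 UMIs 2 genes were called higher and 0 lower, and without the barcodes of the highest Scrublet scores 0 were higher. Nxph1 was found in all 10 members without Lhx6.

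The share of members did not differ between genotypes beyond counting error. Members were 26 of 5572 kept barcodes in gof, or 0.467% (0.305 to 0.683%), and 29 of 7069 in control, or 0.410% (0.275 to 0.589%). The ratio of shares was 1.14 with a lower bound of 0.644 and an upper bound of 2.0, so no difference within these bounds was detectable at this depth. A difference in how much ventral tissue a dissection holds cannot be told apart from one of genotype.

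Genes called higher in gof members mostly had their UMIs in single barcodes. Most calls in both directions were lost without the deepest gof barcode. Among 4765 genes measured, 248 were called higher in gof members (5.2% of all) and 278 lower (5.83%), with a median log2 ratio of -0.16 over all genes. Of the 248 higher genes, 202 had over 50% of their gof UMIs in 1 barcode, while 17 of the 278 lower genes had over 50% of their control UMIs in 1 barcode. The 10 highest were Flt1, Igfbp7, Anxa2, Gng11, Cldn5, Pecam1, Lcp1, Cd34, Anxa3 and Cdh5, several of them endothelial genes, and all 10 were at 0 in control members. Flt1, a VEGF receptor, had 159 UMIs in gof members, 158 of them in the deepest barcode, which is at least 39.0-fold higher than the 3-count limit of the control members. Without this 1 barcode 47 genes were called higher (1% of 4682) and 92 lower (1.96%), and among members of at most 15000 UMIs 36 were called higher (0.74% of 4867) and 79 lower (1.62%). Of the 278 lower genes 78 were still called without this barcode and 44 among members of at most 15000 UMIs. Of the 248 higher genes these counts were 21 and 5.

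**Figure D5:**
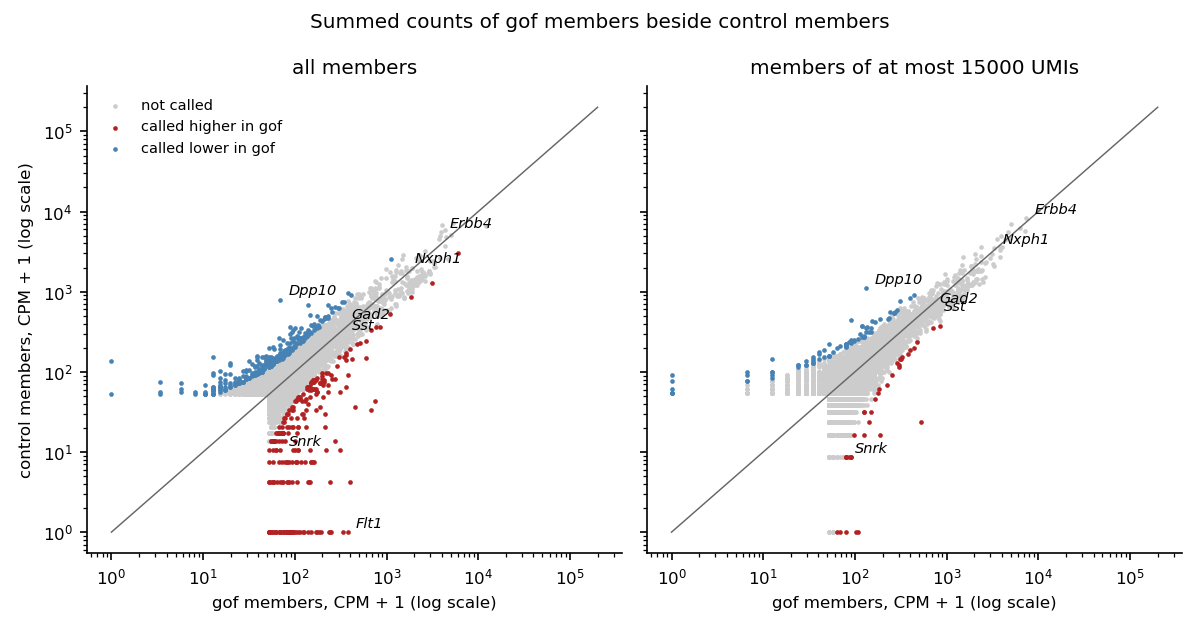
Summed CPM + 1 of each measured gene in gof members (horizontal axis, log scale) and control members (vertical axis, log scale), for all members left and for members of at most 15000 UMIs right; red genes were called higher in gof, blue genes lower, and the line marks equality. The row of red genes at 0 CPM in control on the left, Flt1 among them, is mostly gone on the right, while Dpp10 is far above the line in both.

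Members of both genotypes were chosen on Gad2 and Lhx6, so the levels of these genes are partly set by the rule. Of 5 measured genes of GABA synthesis and transport and of 11 of the medial eminence list none was called in either direction, where 5.2% of all genes were called higher and 5.83% lower, so a count of 0 among so few genes is near the background. Their list medians were -0.16 and -0.38, against -0.16 over all genes. Without the endothelial-gene barcode these medians were 0.36 and 0.08, against -0.04 over all genes, with Nxph2 called higher in gof. Gad1 had 177 CPM (139 to 222) in gof and 199 CPM (152 to 255) in control, and Slc32a1 56.6 CPM (36.3 to 84.2) in gof and 48.1 CPM (26.9 to 79.3) in control.

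Canonical Wnt targets, the read-out of beta-catenin activity, rested on a few barcodes as well. Of 5 measured Wnt target genes, 3 were called higher in gof, namely Nkd1, Apcdd1 and Ccnd1, with a list median of 2.72. Nkd1, a feedback inhibitor, had 73.1 CPM in 4 gof members, 26 of its 31 UMIs in 1 of them, and 3.21 CPM in 1 control member. The gof barcode with these 26 UMIs was a deep member of 20345 UMIs. It had 3 rule genes, 1 Nxph1 UMI, all 6 cell cycle genes and 5 tdTomato UMIs. Ccnd1, a cyclin, had 39 UMIs in 8 gof members, 19 of them in 1 barcode, and 1 UMI in 1 control member. Both were still called without the endothelial-gene barcode, with a list median of 1.38. Among members of at most 15000 UMIs 1 Wnt target was measured and none was called. Single targets leaned both ways there, all below the floor of 50 CPM. Axin2, the usual Wnt target, was lower in gof (0 CPM, control 30.1 CPM). Ccnd1 (gof 39.7 CPM, control 7.54 CPM) and Nkd1 (gof 11.3 CPM, control 0 CPM) were higher in gof. In gof pallial neurons the list summed to 605 CPM and in control pallial neurons to 423 CPM, against 554 CPM in gof members and 215 CPM in control members. These member sums take in the deep members. Over all members 4 targets were measured against pallial neurons, with a median of -0.77 and none called. For members of at most 15000 UMIs, against pallial neurons of all depths, 4 were measured and the median was -3.475. Lef1, Nkd1 and Apcdd1 were called lower there.

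A small set of genes differed in all 3 of these settings (all members, without the endothelial-gene barcode, and at most 15000 UMIs), 2 of them higher and 21 lower in gof, with clone-named and similar genes left out. In these settings 4765, 4682 and 4867 genes were measured, before that exclusion. This set and the genes named from it were chosen after the values were seen. Dpp10, which encodes an auxiliary subunit of A-type potassium channels, had the most control UMIs among the lower ones, 248. It was found in 11 of 26 gof members and 23 of 29 control members, with 68.4 CPM (45.8 to 98.2) for gof and 795 CPM (699 to 901) for control, a log2 ratio of -3.52. Without the endothelial-gene barcode the ratio was -2.98, and among members of at most 15000 UMIs it was -3.08, with 130 CPM in gof and 1108 CPM in control. Per member it ranged from 0 to 696 CPM with a median of 0 CPM in gof, and from 0 to 3978 CPM with a median of 634 CPM in control, so the ranges overlap at the low end. Pallial neurons had 11.2 CPM of Dpp10 in gof and 9.84 CPM in control, close to each other and far below the control members.

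Cntnap5c and Trpc4, which were among the genes of highest ratio over pallial neurons, went the same way. Cntnap5c had 146 CPM (112 to 187) in 18 gof members and 504 CPM (428 to 589) in 27 control members, a log2 ratio of -1.78. Trpc4 had 56.6 CPM in 10 gof members and 205 CPM in 21 control members. In pallial neurons Cntnap5c had 1.94 CPM in gof and 0.947 CPM in control, and Trpc4 had 1.09 CPM in gof and 1.79 CPM in control. The metabotropic glutamate receptor gene Grm8 had 18.9 CPM in gof members and 128 CPM in control members, but it was also lower in gof pallial neurons, at 46.5 CPM against 110 CPM in control pallial neurons. In 4 of the 21 lower genes the pallial neurons showed a difference of at least 2-fold in the same direction. The median log2 ratio of gof over control pallial neurons for the 21 genes was -0.41. Neither value has the same figure over all genes beside it, so no lean of this set beyond the background can be read from them. The 2 genes higher in gof in all 3 settings were Snrk, a kinase gene, with 68.4 CPM in 12 gof members and 9.62 CPM in 3 control members, and the cyclin gene Ccnd2, with 344 CPM in 13 gof members and 154 CPM in 7 control members. With 1 pool of 3 embryos a genotype, these differences cannot be told apart from differences between pools or dissections.

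The same rule at E11.5 picked barcodes with a partly different set of genes. It found 31 of 7593 kept barcodes in the E11.5 gof library (0.408%) and 36 of 6962 in the E11.5 control library (0.517%). Dlx2 was found in 28 gof and 32 control barcodes there, but Lhx6, Sst and Npy were at 0 in all 67, while Isl1 was found in 13 gof and 16 control barcodes and Six3 in 13 gof and 16. Nxph1, present in every E14.5 member, was found in 1 gof and 1 control barcode at E11.5. Other genes of the E14.5 members were shared, with Nrxn3 in 30 gof and 30 control barcodes and Erbb4 in 17 gof and 27 control barcodes. The ages were separate libraries, with 5 embryos pooled in each at E11.5, and these values are set side by side without a test.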

How the data were processed

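Droplet libraries (10x Chromium, 3′ UMI counts) were made from about 14400 loaded and 9000 targeted cells each, per the labels. Raw UMI counts per gene and barcode were deposited by the authors. Per the file headers they come from Cell Ranger 7.1.0, and the submitters' processing notes name mm10 as the build. Which annotation was used is not stated there. Members and gene lists were chosen with earlier results of these data known. Counts were summed over barcodes and scaled to CPM, with exact Poisson intervals; shares have exact Clopper-Pearson intervals (95%, scipy 1.17.1). A gene was called at 2-fold or more with separate intervals, a pseudocount of 1 CPM and at least 50 CPM in either class. The 23 lists and the rule for named genes (the 15 highest and 10 lowest against pallial neurons, 10 and 10 for gof against control, 8 and 8 for Lhx6, without rule, mitochondrial, ribosomal, haemoglobin, Y-linked and clone-named genes) were set with the design. On simulated counts, 100 of 100 genes raised 4-fold and 85 of 100 lowered to 0.25-fold were called. These were Poisson draws from the summed control member profile without variation between barcodes. They describe counting error only and not calls that rest on single barcodes. Doublets were not removed; barcodes with the highest Scrublet scores (scanpy 1.11.5; 0.8% per 1000 barcodes) were left out as an alternative. Thinning drew 3000 UMIs per barcode (seed 1). RefSeq promoters were matched by symbol. Some genes are not reported here.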

Additional observations from a re-analysis of the deposited data

How the results depend on the processing

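No paired analysis was possible because each group is 1 library. The share of members and its gof over control ratio stayed within their counting intervals under all alternatives run. The share of members with Lhx6 was 66.2% with at least 2 rule genes and 41.8% after thinning to 3000 UMIs; thinning also gave 1.82% with caudal genes and 0% with the reporter. Members of at most 15000 UMIs, a setting chosen like the removal of endothelial-gene barcodes after seeing the data, gave 2.33% cycling, 2.33% with pallial genes and 0% with the reporter.

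Genes called in gof over control members numbered 19 higher and 32 lower after thinning, 135 higher at a floor of 100 CPM, 181 lower under median-of-ratios scaling, 47 and 92 without endothelial-gene barcodes, and 36 and 79 at most 15000 UMIs. In the last setting 350 and 300 were called against pallial neurons. For members with Lhx6 over others the counts were 53 and 39 with at least 2 rule genes, 0 higher without the highest Scrublet scores, 3 higher without members with pallial genes, 0 and 0 after thinning, 1 lower without endothelial-gene barcodes, and 2 and 0 at most 15000 UMIs. Lists with a median at or below -1 against pallial neurons numbered 3, and 5 with at least 4 rule genes, 6 without the highest Scrublet scores, 8 without members with pallial genes, 7 after thinning, 5 at a floor of 100 CPM and 10 at most 15000 UMIs. Slc5a4b changed sign to 1.95 without the highest Scrublet scores, 2.04 without members with pallial genes and 2.74 at most 15000 UMIs, and Ltbp1 to 0.15 after thinning; the cause was not tested. The 25 genes named against pallial neurons kept their direction in every setting, though 4 were no longer called with at least 2 rule genes, 4 after thinning and 12 at a floor of 100 CPM. With 424014 member UMIs in gof and 311844 in control, 3 counts are 7.08 CPM in gof and 9.62 CPM in control.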
